A study of Mus musculus with 2 samples.

Results

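The 8 genes described here, Srebf2, Insig1, Hmgcs1, Idi1, Fdps, Sqle, Cyp51 and Dhcr7, make or control the making of cholesterol. They were chosen by name, as a list of sterol genes, and all 8 of them were found by symbol among the 33696 genes counted in both libraries. None of the 8 encodes a receptor that takes up lipoprotein: Srebf2 and Insig1 set the activity of the pathway, which includes uptake, and the other 6 encode enzymes of synthesis. The question was whether the 8 move as one between the genotypes in any cell type of the aorta.

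Cholesterol is built from acetyl-CoA through mevalonate, farnesyl diphosphate, squalene and lanosterol. The transcription factor SREBP2, the product of Srebf2, is held in the endoplasmic reticulum by SCAP and the INSIG proteins while sterols are plentiful, and is carried to the Golgi and cut free when they are scarce, after which it switches on the genes of synthesis and uptake. Cells that take up much cholesterol, such as the foam cells of atherosclerotic plaques, are known to keep these genes low.

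Single-cell RNA was counted in aortas of Kif13b-/- mice (1 library) and of WT mice (1 library). Kif13b encodes a kinesin, a motor protein that carries cargo along microtubules. The sample title names a homozygous Kif13b deletion, while the genotype field of the same sample calls it a knock down, and no label states the strain, age, sex or diet of the mice or how many animals each library pools. The series title concerns macrophage KIF13B, the receptor MERTK and the clearance of dead cells in atherosclerosis. There is no replicate of either genotype, so no p-value or SD is given. Every interval below is a 95% exact interval that covers counting error of UMIs only, and a difference between genotypes cannot be told apart from a difference between animals, dissections or library preparations.

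The Kif13b-/- library held 7766 barcodes and 64455003 UMIs (unique molecular identifiers, each 1 captured RNA molecule), against 21126 barcodes and 93136569 UMIs in the WT library. Both exceed the 6000 cells loaded, so the counts below are of barcodes, and 52 barcodes occurred in both libraries. After filters and removal of putative doublets, 6887 Kif13b-/- and 16686 WT barcodes remained, with a median of 5760 UMIs in Kif13b-/- and 2385 UMIs in WT, and the Kif13b-/- barcodes were deeper in each cell type compared. Clustering gave 33 clusters, of which 26 could be named from marker genes as 15 cell types. Unnamed clusters held 27.9% of Kif13b-/- barcodes and 12.8% of WT barcodes, and 1 of them, led by mitochondrial genes with C1qb, Apoe and Trem2 behind them, held 1288 Kif13b-/- barcodes and 7 WT barcodes. The cell types were rebuilt here from markers and are called X-like for that reason. Kif13b itself ran from 19.1 to 62.0 CPM (a gene's UMIs scaled to 1000000 UMIs in all) over the cell types in Kif13b-/- and from 25.4 to 106 CPM in WT. That is no check of the deletion, since tags from the 3' end are counted and the altered part of the gene is not given.

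In 12 cell types with at least 50 barcodes in both libraries, the 8 genes gave 96 values, of which 79 rested on at least 20 UMIs over both libraries and were compared. The log2 ratio of Kif13b-/- over WT was above 0 in 26 of the 79 and below 0 in 53. A ratio of 1.5 in either direction was used to call a gene higher or lower: 4 of the 79 values were higher in Kif13b-/- and 17 were lower. Of all genes tested, between 4.84% and 17.5% were higher and between 4.58% and 24.3% were lower, depending on the cell type. With at least 50 UMIs asked for, the members' counts were 0 higher and 8 lower, and with a prior count of 5 the lower ones numbered 7. The counting interval lay wholly above 0 for 4 values and wholly below 0 for 13. Summed over the 8 genes, the level was lower in Kif13b-/- in 9 of the 12 cell types and higher in 3, with an interval below 0 in 6 and above 0 in 1. All compared members fell on the same side of 0 in only 2 of the 12 cell types, fibroblast-like and Schwann or glial-like cells, both with lower values in Kif13b-/-.

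**Figure D1:**
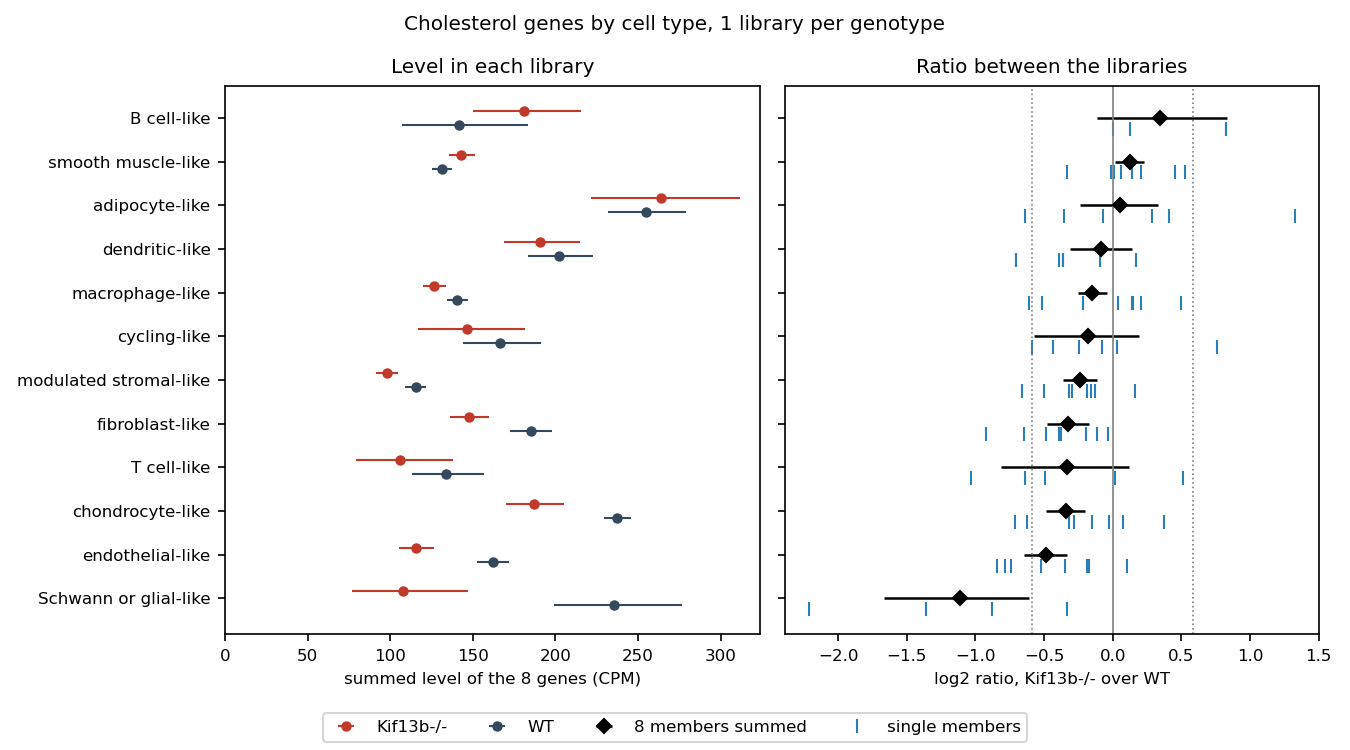
Left, the summed level of the 8 genes in CPM in each cell type, with Kif13b-/- drawn above WT and bars for 95% counting intervals; right, the log2 ratio of Kif13b-/- over WT of the sum (diamonds, with intervals) and of each member with at least 20 UMIs (ticks), with dotted lines at a ratio of 1.5 either way. The sum is lower in Kif13b-/- in 9 of 12 cell types, and the ticks of most cell types lie on both sides of 0.

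Pooled over all analysed barcodes, the summed level was 133 CPM in Kif13b-/- and 162 CPM in WT, a log2 ratio of -0.29 (-0.33 to -0.25). Idi1 was the member past the ratio of 1.5, at 9.71 CPM in Kif13b-/- and 15.5 CPM in WT, where 8.19% of all genes tested were lower by that ratio and 4.5% were higher. This pooled value mixes cell types that make up different shares of the 2 libraries, so the values within cell types follow.

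Among the controllers, Srebf2 (chromosome 15, 82147181 to 82205379, plus strand, in GRCm38 with GENCODE M21) had no interval off 0 between the genotypes and a wide range between cell types. Its level was highest in dendritic-like cells in both libraries, at 116 CPM (98.9 to 135) in Kif13b-/- and 103 CPM (89.6 to 118) in WT. B cell-like cells came next, at 67.6 CPM (49.5 to 90.2) in Kif13b-/- and 67.1 CPM (44.2 to 97.6) in WT. In Kif13b-/- the intervals of these 2 cell types did not overlap, and the B cell-like interval cleared that of fibroblast-like cells, next in the order, but overlapped those of T cell-like and Schwann or glial-like cells. In WT no 2 neighbours in the order were apart. The other 10 cell types ran from 15.4 to 36.5 CPM in Kif13b-/- and from 23.3 to 51.2 CPM in WT. The log2 ratio of Srebf2 was above 0 in 4 of 12 cell types and below 0 in 8.

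Insig1 (chromosome 5, 28071363 to 28078662, plus strand) encodes the retention protein of the endoplasmic reticulum and is itself a target of SREBP2, and its level stood highest in adipocyte-like cells. There it was 131 CPM (102 to 166) in Kif13b-/- and 99.1 CPM (85.0 to 115) in WT, apart from the next cell type in both libraries. Chondrocyte-like cells followed, with 46.4 CPM in Kif13b-/- and 56.7 CPM in WT. Smooth muscle-like cells were at the low end, with 13.2 CPM (10.97 to 15.8) in Kif13b-/- and 13.1 CPM (11.3 to 15.2) in WT. Of 11 cell types compared for Insig1, 8 were below 0 and 3 above, and 5 intervals lay below 0.

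Hmgcs1 (chromosome 13, 119690379 to 119708260, plus strand) encodes HMG-CoA synthase, an early step of the mevalonate pathway. Its level was highest in adipocyte-like cells, at 53.9 CPM (35.8 to 77.9) in Kif13b-/- and 70.0 CPM (58.2 to 83.4) in WT. The Kif13b-/- level was below the WT level in 10 of 12 cell types, with 4 intervals below 0, and above it in smooth muscle-like and B cell-like cells. Idi1 (chromosome 13, 8885501 to 8892451, plus strand), the isomerase that makes the building block for farnesyl diphosphate, had its highest level at 27.0 CPM in Kif13b-/- adipocyte-like cells and at 29.7 CPM in WT chondrocyte-like cells. It was below 0 in 7 of 9 cell types compared, with 3 intervals below 0.

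Fdps (chromosome 3, 89093588 to 89101959, minus strand), which makes farnesyl diphosphate, did not share that direction, with 6 values above 0 and 5 below. Sqle (chromosome 15, 59315077 to 59331192, plus strand), the squalene epoxidase and a further control point of the pathway, was too sparse to compare in 6 of 12 cell types, and its level was never above 10.4 CPM in Kif13b-/- or 14.4 CPM in WT. Cyp51 (chromosome 5, 4081145 to 4104746, minus strand) removes the methyl group of lanosterol, and its values lay on both sides, with 5 above 0 and 7 below. Dhcr7 (chromosome 7, 143823145 to 143848410, plus strand), the last step to cholesterol in one branch, was the sparsest: in adipocyte-like cells it had 0 UMIs in Kif13b-/-, for which the exact interval reaches 7.10 CPM, against 12 UMIs or 6.72 CPM (3.47 to 11.7) in WT, so a difference was not detectable at this depth.

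**Figure D2:**
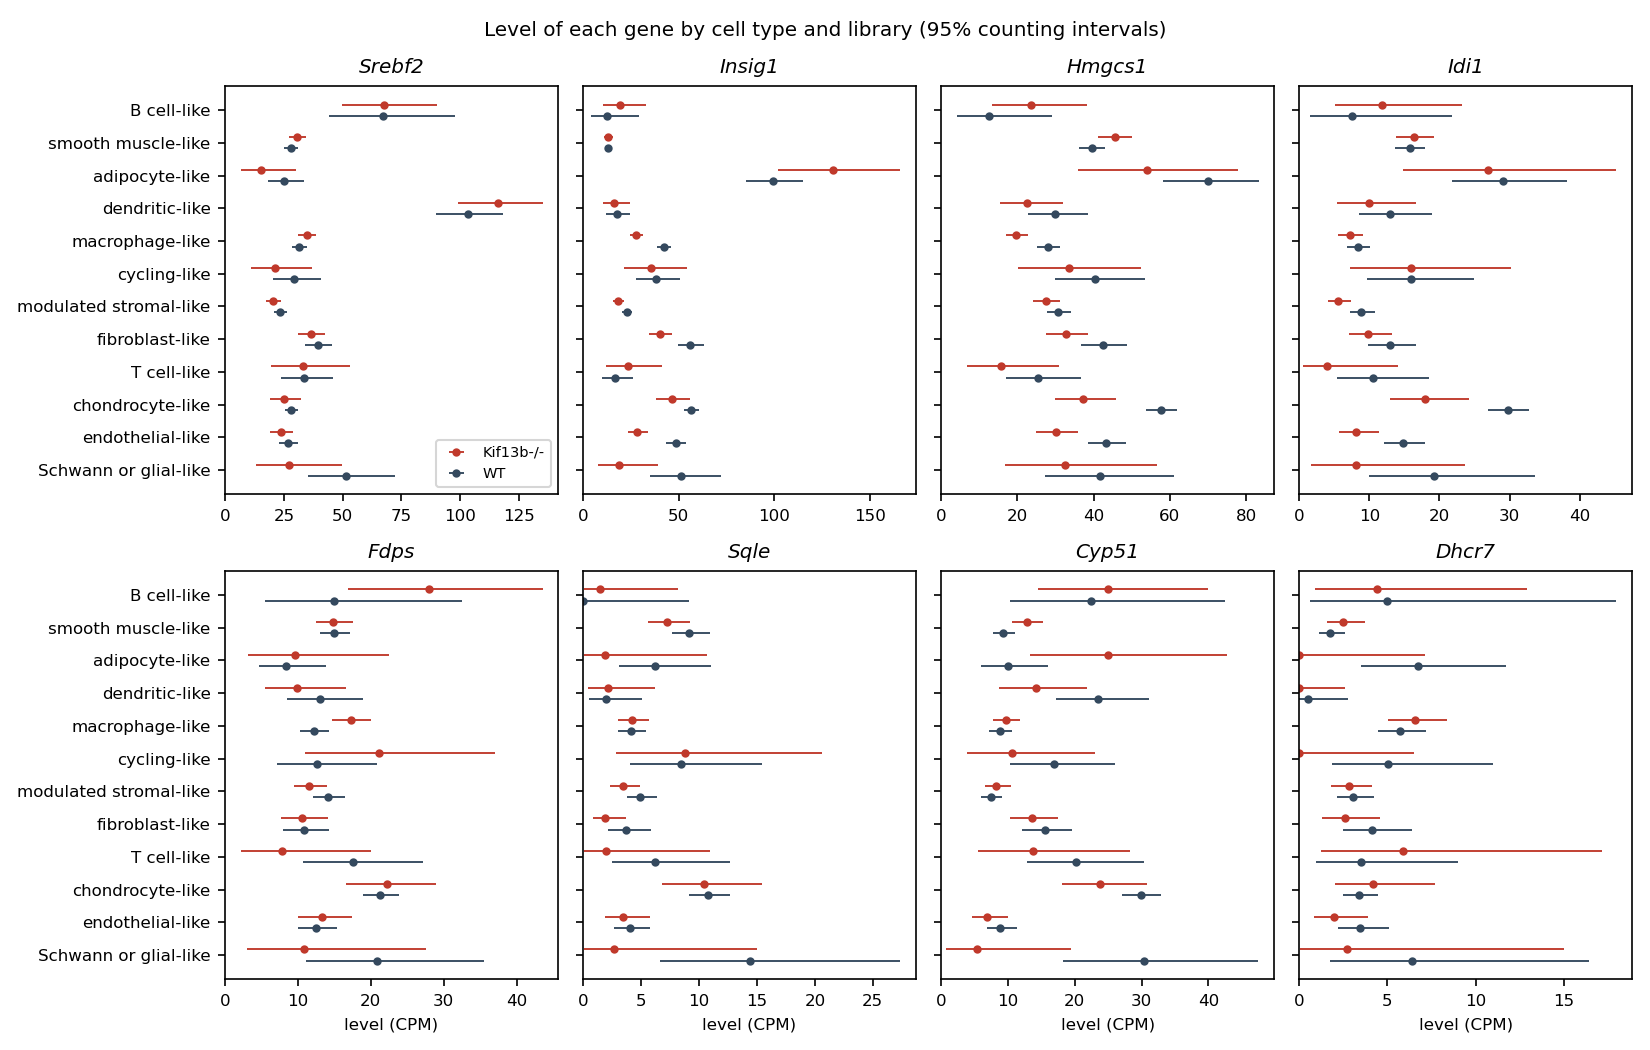
Level of each gene (CPM, linear axis from 0, with its own scale per gene) in 12 cell types, Kif13b-/- above WT, with bars for 95% counting intervals and 1 library per genotype. Srebf2 is highest in dendritic-like cells and Insig1 in adipocyte-like cells in both libraries, while most other neighbouring intervals overlap.

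Insig1 was lower in Kif13b-/- past its counting error in 5 cell types, and Hmgcs1 and Idi1, which lie on the same chromosome far apart, in 4 and 3. The 250 bases before the annotated start of these 3 genes are shown because they are the members with most intervals below 0 (RefSeq, GRCm38.p6, plus strand, 5' to 3'). Capitals mark matches on either strand to TCACNCCAC, the core of a sterol regulatory element, or to CCAAT, the box bound by NF-Y, a partner of SREBP factors, which reads ATTGG on the other strand. The windows are chr13:119690101-119690350 for Hmgcs1, chr13:8885356-8885605 for Idi1 and chr5:28071162-28071411 for Insig1.
Hmgcs1: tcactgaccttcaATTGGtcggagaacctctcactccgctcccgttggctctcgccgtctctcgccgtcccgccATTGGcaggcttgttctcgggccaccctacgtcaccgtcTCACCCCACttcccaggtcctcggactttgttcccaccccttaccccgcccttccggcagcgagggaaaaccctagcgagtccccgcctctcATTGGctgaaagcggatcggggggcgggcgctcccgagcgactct
Idi1: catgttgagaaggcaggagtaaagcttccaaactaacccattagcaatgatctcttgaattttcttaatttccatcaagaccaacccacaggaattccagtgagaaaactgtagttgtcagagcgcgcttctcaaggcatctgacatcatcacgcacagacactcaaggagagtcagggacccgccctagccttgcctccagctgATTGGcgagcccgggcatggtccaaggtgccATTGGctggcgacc
Insig1: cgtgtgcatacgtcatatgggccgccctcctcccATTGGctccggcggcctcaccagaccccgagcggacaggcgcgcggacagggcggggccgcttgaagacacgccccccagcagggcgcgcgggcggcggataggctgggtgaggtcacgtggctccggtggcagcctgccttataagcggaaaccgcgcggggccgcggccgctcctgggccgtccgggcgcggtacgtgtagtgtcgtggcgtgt
Of the 6 members with such a window in the RefSeq table, 1 held the sterol element core, Hmgcs1, as TCACCCCAC on the plus strand, starting 137 bases before the start. That core occurred in 1.05% of 32851 windows of the same length over all genes. A CCAAT box was present in at least 1 window of all 6 members, against 33.8% of all windows and 37.5% of all genes with a window. In Hmgcs1 the 2 motifs did not overlap, and a match of letters is a description that shows no binding.

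In endothelial-like cells (625 Kif13b-/- and 2441 WT barcodes) the 8 genes were lower in Kif13b-/- with 1 exception. The summed level was 116 CPM (105 to 127) in Kif13b-/- and 162 CPM (153 to 172) in WT, a log2 ratio of -0.49 (-0.64 to -0.33), and 7 of 8 members were below 0. Idi1 had 33 UMIs and 8.14 CPM in Kif13b-/- against 103 UMIs and 14.7 CPM in WT, a log2 ratio of -0.84 (-1.47 to -0.28). For Insig1 the levels were 28.1 CPM in Kif13b-/- and 48.5 CPM in WT, a log2 ratio of -0.78 (-1.11 to -0.48). Hmgcs1 was at 30.1 CPM in Kif13b-/- and 43.2 CPM in WT, with a log2 ratio of -0.52 (-0.84 to -0.21). Those are the 3 members whose intervals excluded 0, while Fdps stood at 13.3 CPM in Kif13b-/- and 12.5 CPM in WT. By the ratio of 1.5, 3 of 8 members were lower and 0 were higher, where 8.26% of all 13635 genes tested were lower and 6.39% higher. These calls were Idi1, Insig1 and Dhcr7, while Hmgcs1 did not reach that ratio. Dhcr7 rested on 8 UMIs in Kif13b-/- and 24 in WT, with an interval that included 0. Outside the 8, 1 of 12 compared genes of cholesterol uptake and transport was higher and 1 lower. The higher was Scarb1, a receptor that takes cholesterol from HDL, at 222 CPM in Kif13b-/- and 121 CPM in WT, a log2 ratio of 0.87 (0.74 to 1.01). All 8 endothelial markers were present in both libraries, summing to 3179 CPM in Kif13b-/- and 3071 CPM in WT. All 8 fibroblast markers were present too, at 7392 CPM in Kif13b-/- and 6288 CPM in WT. Of 8 cycling markers in these cells, 6 were lower and 0 higher, with a median log2 ratio of -1.68 and a sum of 55.5 CPM in Kif13b-/- and 127 CPM in WT. The part of these markers in the result was not tested.

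In fibroblast-like cells (727 Kif13b-/- and 1750 WT barcodes) all 8 members were below 0. The summed level was 148 CPM (136 to 160) in Kif13b-/- and 185 CPM (173 to 198) in WT, a log2 ratio of -0.33 (-0.48 to -0.18). The members spread between -0.92 for Sqle, on 8 UMIs in Kif13b-/- and 17 in WT, and -0.03 for Fdps. Insig1 had 40.0 CPM in Kif13b-/- and 56.0 CPM in WT, a log2 ratio of -0.49 (-0.77 to -0.20). Hmgcs1 had 32.7 CPM in Kif13b-/- and 42.4 CPM in WT, a log2 ratio of -0.37 (-0.70 to -0.06). The other 6 intervals included 0. A cluster of 112 barcodes in this class came from WT alone, and in the cluster that held most of the class the log2 ratio of the sum was -0.36, again with 0 members above 0. Sqle and Dhcr7, both with few UMIs, made the 2 calls lower, with 0 calls higher, where 8.75% of all genes tested were lower and 6.94% higher and 45.9% had a log2 ratio above 0. The smooth muscle markers summed to 2663 CPM in Kif13b-/- and 4243 CPM in WT fibroblast-like cells, and the fibroblast markers to 30090 CPM in Kif13b-/- and 21824 CPM in WT. Of 7 cycling markers compared, 6 were higher and 0 lower, with a median log2 ratio of 1.97 and a sum of 103 CPM in Kif13b-/- and 31.03 CPM in WT. The part of these markers in the result was not tested.

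Chondrocyte-like cells, which in plaques are known to arise from smooth muscle cells, were 207 barcodes in Kif13b-/- and 1766 in WT. Their summed level was 187 CPM (170 to 205) in Kif13b-/- and 237 CPM (229 to 246) in WT, a log2 ratio of -0.34 (-0.49 to -0.20), with 6 of 8 members below 0. The log2 ratio of the sum was -0.69 and -0.36 in 2 clusters of the class and 0.51 in another. That other cluster held 6.76% of the class's barcodes in Kif13b-/- and 19.7% in WT. It had only 14 barcodes and 2.07% of the class's UMIs in Kif13b-/-, against 348 barcodes in WT. No interval was computed for its value, so its direction is not settled. Idi1 was at 18.0 CPM in Kif13b-/- and 29.7 CPM in WT, a log2 ratio of -0.71 (-1.21 to -0.27). Hmgcs1 was at 37.2 CPM in Kif13b-/- and 57.6 CPM in WT, a log2 ratio of -0.62 (-0.96 to -0.31). These early enzymes were the 2 members called lower, with 0 higher, where 12.1% of all genes tested were lower and 9.1% higher. The chondrocyte markers themselves summed to 10842 CPM in Kif13b-/- and 15774 CPM in WT, and the foamy macrophage markers to 43345 CPM in Kif13b-/- and 32202 CPM in WT. That foamy marker sum was above the one in macrophage-like cells in both libraries, so it is not a measure of macrophage content. The part of these markers in the result was not tested.

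In modulated stromal-like cells (674 Kif13b-/- and 1329 WT barcodes) the summed level was the lowest of the 12 cell types in both libraries, at 97.8 CPM (91.5 to 105) in Kif13b-/- and 115 CPM (109 to 122) in WT. The log2 ratio of the sum was -0.24 (-0.36 to -0.11), with 7 of 8 members below 0. Idi1, at 5.59 CPM in Kif13b-/- and 8.86 CPM in WT, was the 1 member called lower, with a log2 ratio of -0.66 (-1.18 to -0.17). Insig1 was at 18.3 CPM in Kif13b-/- and 22.8 CPM in WT, a log2 ratio of -0.32 (-0.61 to -0.03). No member was called higher, and 5.5% of all genes tested were lower and 4.92% higher. With each barcode thinned to 1000 UMIs, the log2 ratio of the sum was 0.05. The lowest rank was lost with each barcode counting the same, to Schwann or glial-like cells in Kif13b-/- (102 CPM) and T cell-like cells in WT (128 CPM), and on thinning, to Schwann or glial-like cells in Kif13b-/- (58.8 CPM) and dendritic-like cells in WT (117 CPM).

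Schwann or glial-like cells gave the largest ratio of the sum among the 12 cell types, on few barcodes, 71 in Kif13b-/- and 212 in WT. The 8 genes summed to 40 UMIs and 108 CPM (77.1 to 147) in Kif13b-/- against 147 UMIs and 235 CPM (199 to 277) in WT, a log2 ratio of -1.11 (-1.67 to -0.61). The 4 members with enough UMIs were all below 0. Cyp51 had 2 UMIs in Kif13b-/- and 19 in WT, a log2 ratio of -2.21 (-5.64 to -0.44). Insig1 had 7 UMIs in Kif13b-/- and 32 in WT, a log2 ratio of -1.36 (-2.86 to -0.23). With Srebf2, at 27.0 CPM in Kif13b-/- and 51.2 CPM in WT, these made 3 calls lower and 0 higher, where 17.6% of all genes tested were lower and 12.4% higher. The class also differed in make-up: Schwann markers summed to 1648 CPM in Kif13b-/- and 2901 CPM in WT, fibroblast markers to 11059 CPM in Kif13b-/- and 7887 CPM in WT, and 13 stress and immediate early genes to 15287 CPM in Kif13b-/- and 9256 CPM in WT. The part of these differences in the result was not tested. Counting the putative doublets brought the log2 ratio of the sum to -0.61.

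Macrophage-like cells, the cells in which the study places KIF13B, were 1330 barcodes in Kif13b-/- and 2815 in WT, and here the 8 genes split. The summed level was 127 CPM (120 to 134) in Kif13b-/- and 141 CPM (134 to 147) in WT, a log2 ratio of -0.15 (-0.26 to -0.04), with 5 of 8 members above 0 and 3 below. Insig1 had 269 UMIs and 27.6 CPM (24.4 to 31.1) in Kif13b-/- against 524 UMIs and 42.0 CPM (38.5 to 45.8) in WT, a log2 ratio of -0.61 (-0.83 to -0.39). Hmgcs1 had 19.7 CPM in Kif13b-/- and 28.1 CPM in WT, a log2 ratio of -0.51 (-0.77 to -0.26). Against both stood Fdps, with 17.2 CPM (14.7 to 20.02) in Kif13b-/- and 12.2 CPM (10.3 to 14.3) in WT, a log2 ratio of 0.50 (0.17 to 0.82). Srebf2 itself was at 34.7 CPM in Kif13b-/- and 31.4 CPM in WT, with an interval that included 0. Insig1 was the 1 call lower, with 0 higher, where 9.36% of all genes tested were lower and 4.84% higher. The small difference of the sum rested on Insig1, for without it the log2 ratio was 0.01. The class held a deep cluster with 72.8% of its UMIs in Kif13b-/- and 61.5% in WT, and in that cluster alone the log2 ratio of the sum was -0.11. That ratio was -0.31 in a cluster of 483 Kif13b-/- and 1670 WT barcodes. In a cluster of 366 Kif13b-/- and 340 WT barcodes it was 0.07, with 5 members above 0. No intervals were computed for these clusters. In the whole class fibroblast markers summed to 3244 CPM in Kif13b-/- and 4076 CPM in WT, and foamy macrophage markers to 21944 CPM in Kif13b-/- and 18947 CPM in WT. Clustered again, much of the class fell in sub-clusters led by genes of other cell types. Leading genes included Myh11 and Lmod1 (52 Kif13b-/- and 424 WT barcodes), Myh11 and Des (208 and 473), Vcam1 and Crabp2 (188 and 443), and Bpifb1 and Cst6 (255 and 64). The part of these differences in the result was not tested.

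Parts of the macrophage-like cells can be read separately. Foamy macrophage-like cells (279 Kif13b-/- and 396 WT barcodes), named from lipid-associated markers, had a summed level of 132 CPM in Kif13b-/- and 128 CPM in WT, a log2 ratio of 0.04 (-0.13 to 0.21). Fdps was higher in them, at 21.3 CPM (17.4 to 25.9) in Kif13b-/- and 14.0 CPM (10.7 to 18.0) in WT, a log2 ratio of 0.60 (0.13 to 1.097). With Sqle, on 26 UMIs in Kif13b-/- and 14 in WT, it made 2 calls higher and 0 lower, where 7.85% of all genes tested were higher and 6.71% lower. Insig1 was at 21.8 CPM in Kif13b-/- and 27.0 CPM in WT in foamy macrophage-like cells, with an interval from -0.71 to 0.08. The other group, an unnamed sub-cluster led by Ly6c2 and Plac8 and picked after its values were seen, had 167 Kif13b-/- and 369 WT barcodes. Its Insig1 level was 36.8 CPM (28.3 to 47.0) in Kif13b-/- and 61.6 CPM (52.8 to 71.4) in WT, a log2 ratio of -0.74 (-1.18 to -0.32). Insig1 was the 1 call lower there and Fdps, on 21 UMIs in each library, the 1 call higher, where 12.1% of all genes tested were lower and 7.89% higher. In both libraries the Insig1 level of this sub-cluster was above that of the foamy cells, with intervals that did not overlap, although Srebf2 did not differ beyond its intervals.

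**Figure D3:**
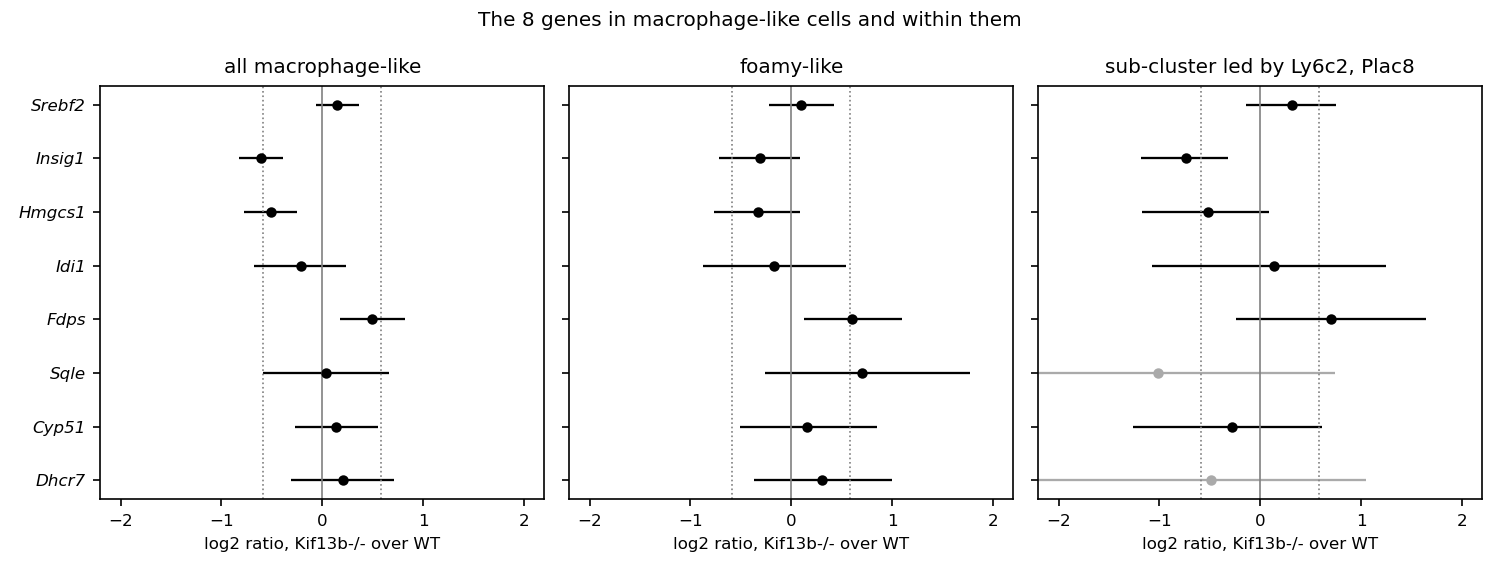
The log2 ratio of Kif13b-/- over WT for each of the 8 genes with its 95% counting interval, in all macrophage-like cells, in the foamy-like cells and in the sub-cluster led by Ly6c2 and Plac8; grey points have under 20 UMIs and dotted lines mark a ratio of 1.5 either way. Insig1 and Hmgcs1 lie below 0 and Fdps above 0 in all 3 panels, and Insig1 is farthest from 0 in the sub-cluster, at -0.74.

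Smooth muscle-like cells (867 Kif13b-/- and 2401 WT barcodes) were the 1 cell type whose summed interval lay above 0. The sum was 143 CPM (135 to 151) in Kif13b-/- and 131 CPM (125 to 138) in WT, a log2 ratio of 0.12 (0.02 to 0.23), with 6 of 8 members above 0. Hmgcs1 was at 45.5 CPM in Kif13b-/- and 39.5 CPM in WT, a log2 ratio of 0.20 (0.02 to 0.39). Cyp51 was at 12.8 CPM in Kif13b-/- and 9.31 CPM in WT, a log2 ratio of 0.46 (0.08 to 0.83). No member passed the ratio of 1.5 in either direction, while 5.88% of all genes tested were higher and 4.58% lower. The direction of the sum did not hold when each barcode counted the same (log2 ratio -0.0012) or was thinned to 1000 UMIs (-0.02).

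Adipocyte-like cells (60 Kif13b-/- and 490 WT barcodes) had the highest summed level of the 12 cell types in both libraries, at 264 CPM (221 to 312) in Kif13b-/- and 255 CPM (232 to 279) in WT, a log2 ratio of 0.05 (-0.24 to 0.33). In WT this interval overlapped those of chondrocyte-like and Schwann or glial-like cells. With each barcode counting the same, the highest were cycling-like cells in Kif13b-/- (254 CPM) and chondrocyte-like cells in WT (264 CPM), and thinned to 1000 UMIs they were dendritic-like cells in Kif13b-/- (268 CPM) and chondrocyte-like cells in WT (251 CPM). With cell types from the highest marker score, chondrocyte-like cells were highest in Kif13b-/- (208 CPM). Insig1 alone gave 68 of the 137 UMIs of the 8 genes in Kif13b-/- and 177 of the 455 in WT. Cyp51 had 13 UMIs and 25.03 CPM in Kif13b-/- against 18 UMIs and 10.1 CPM in WT, a log2 ratio of 1.33 (0.16 to 2.42), the 1 call higher. Srebf2, on 8 UMIs in Kif13b-/- and 45 in WT, was the 1 call lower, where 10.1% of all genes tested were higher and 17.4% lower. Adipocyte markers summed to 21900 CPM in Kif13b-/- and 14106 CPM in WT, and macrophage foam markers to 2905 CPM in Kif13b-/- and 7775 CPM in WT, and their part was not tested. The log2 ratio of the sum was -0.96 when barcodes were thinned to 1000 UMIs, -0.67 with cell types from the highest marker score and -0.33 with each barcode counting the same.

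The remaining 4 cell types gave sums whose intervals included 0. In dendritic-like cells the sum was 191 CPM in Kif13b-/- and 202 CPM in WT, a log2 ratio of -0.08 (-0.31 to 0.14). Cyp51 was the 1 call lower in them, at 14.1 CPM in Kif13b-/- and 23.4 CPM in WT, with 0 higher, where 7.83% of all genes tested were lower and 12.5% higher. Srebf2 gave 164 of the 270 UMIs of the 8 genes in Kif13b-/- and 207 of the 406 in WT; without it the log2 ratio was -0.40, and thinned to 1000 UMIs it was 1.19. B cell-like cells had 181 CPM in Kif13b-/- and 142 CPM in WT, a log2 ratio of 0.34 (-0.11 to 0.83). Their 2 calls higher were Hmgcs1, on 16 UMIs in Kif13b-/- and 5 in WT, and Fdps, on 19 UMIs in Kif13b-/- and 6 in WT, with 0 lower, where 17.5% of all genes tested were higher and 24.3% lower and their median log2 ratio was -0.14. T cell-like cells had 106 CPM in Kif13b-/- and 134 CPM in WT, a log2 ratio of -0.33 (-0.82 to 0.12). Hmgcs1 and Fdps were the 2 calls lower there, with 0 higher, where 19.3% of all genes tested were lower and 13% higher. Cycling-like cells, of any lineage, had 147 CPM in Kif13b-/- and 167 CPM in WT, a log2 ratio of -0.18 (-0.57 to 0.19). Their calls were Fdps higher and Cyp51 lower, where 15.8% of all genes tested were higher and 19.5% lower.

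**Figure D4:**
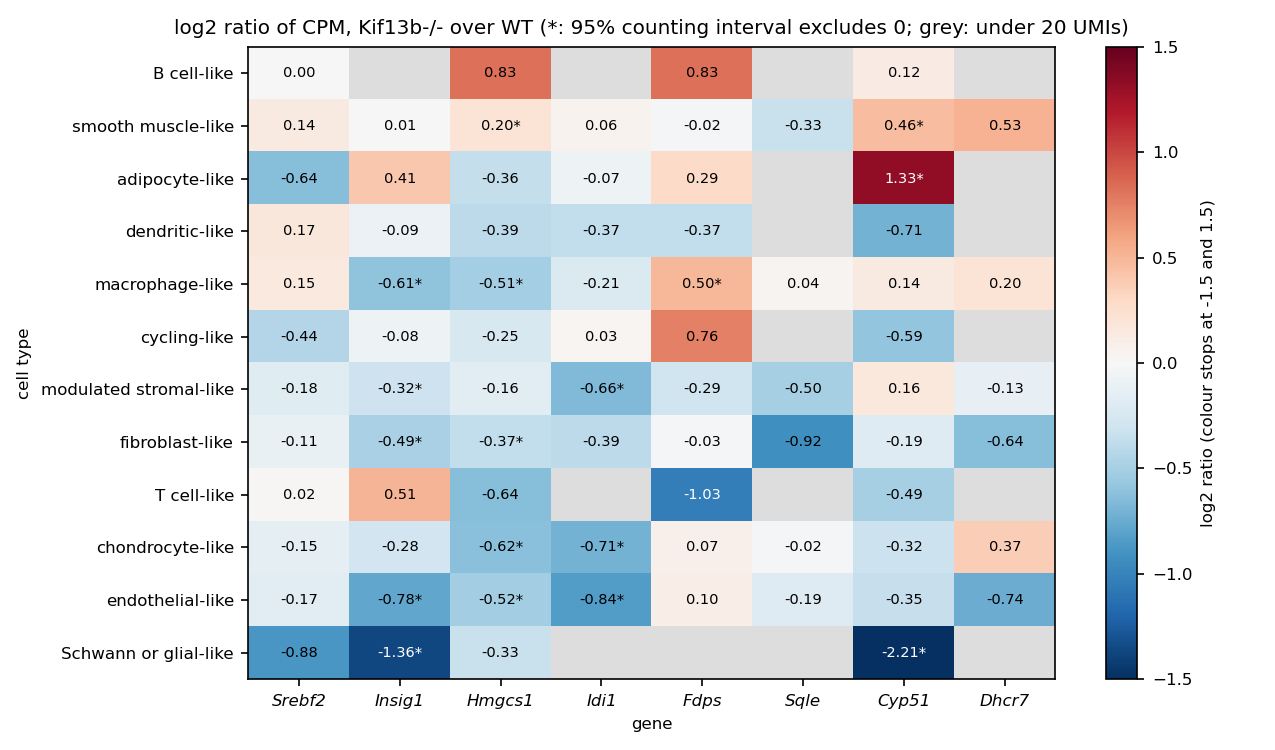
Log2 ratio of Kif13b-/- over WT for each gene (columns, from controllers to the last enzyme) in each cell type (rows, ordered by the ratio of the sum); red is higher in Kif13b-/-, blue lower, stars mark intervals that exclude 0 and grey cells have under 20 UMIs. The stars below 0 gather in the columns of Insig1, Hmgcs1 and Idi1. Every column holds values on both sides of 0. Above and below 0 stand 3 and 8 values for Insig1, 2 and 10 for Hmgcs1 and 2 and 7 for Idi1. For Fdps they are 6 and 5, and for Cyp51 5 and 7.

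Across cell types, some members followed each other and others did not. Over the 12 cell types within a library, the median Pearson r between pairs of members, on log2(CPM + 1), was 0.08 in Kif13b-/- and 0.11 in WT over 28 pairs, of which 3 in Kif13b-/- and 8 in WT were above 0.5. Values under 20 UMIs entered these. The pair Hmgcs1 and Idi1 was the closest, with r of 0.83 in Kif13b-/- and 0.87 in WT, and Hmgcs1 had r with Insig1 of 0.49 in Kif13b-/- and 0.77 in WT, and with Sqle of 0.35 in Kif13b-/- and 0.74 in WT. For Hmgcs1 and Sqle, Spearman's rho was only 0.27 in Kif13b-/- and 0.38 in WT. Srebf2 had the lowest median r with the others, at -0.22 in Kif13b-/- and -0.40 in WT. These correlations are descriptions over cell types that share a library and its depth. Over the 24 values of 12 cell types in 2 libraries, the genes whose level was most like the summed members, of 5980 considered, were Bzw1 (r 0.73), Bcl2l13 (0.70), Top1 (0.64), Pex5 (0.62), Zfp655 (0.62), Dot1l (0.62), Xbp1 (0.60), Ddt (0.58), Sowahc (0.58) and Slc4a7 (0.58). None of these 10 is in the sterol lists, although Xbp1, a transcription factor of the unfolded protein response, is in another list used here. The nearest sterol gene was Pmvk, a mevalonate pathway kinase, at rank 60 with r 0.49.

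The other enzymes of cholesterol synthesis, 15 genes, can be set beside the members. In macrophage-like cells 15 were compared and 0 were called either way, with a median log2 ratio of -0.02, against a median of all genes tested of -0.02. In endothelial-like cells 12 were compared, with 1 higher, 2 lower and a median of 0.01, where 6.39% of all genes tested were higher and 8.26% lower. Hsd17b7, a sterol reductase, was among the lower ones (log2 ratio -0.98). In fibroblast-like cells 12 were compared, with 1 higher, 3 lower and a median of -0.10, where 6.94% of all genes tested were higher and 8.75% lower. Lbr, a sterol reductase that also anchors chromatin, was at 17.1 CPM in Kif13b-/- and 27.6 CPM in WT fibroblast-like cells, and Mvk, the mevalonate kinase, stood the other way at 7.72 CPM in Kif13b-/- and 3.23 CPM in WT. In chondrocyte-like cells 15 were compared, with 0 higher, 4 lower and a median of -0.19, where 9.1% of all genes tested were higher and 12.1% lower. Lbr was lower there, at 6.27 CPM in Kif13b-/- and 16.2 CPM in WT. Smooth muscle-like cells had 15 compared, 1 higher and 0 lower, with a median of 0.15, where 5.88% of all genes tested were higher and 4.58% lower. In endothelial-like cells the 8 members had a median of -0.43, in fibroblast-like cells -0.38 and in macrophage-like cells 0.09.

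Of 11 genes that control SREBP processing, 11 were compared in each of macrophage-like, endothelial-like, fibroblast-like, modulated stromal-like, chondrocyte-like and smooth muscle-like cells, and 0 were called either way. The other 6 cell types all had calls. Shares in brackets are those of all genes tested in that cell type, higher first. Cycling-like cells had 4 of 11 higher and 1 lower (15.8%, 19.5%), with a median log2 ratio of 0.50. Adipocyte-like cells had 2 of 10 higher and 1 lower (10.1%, 17.4%), and T cell-like cells 2 of 9 higher and 0 lower (13%, 19.3%). Of 8 genes, Schwann or glial-like cells had 0 higher and 2 lower (12.4%, 17.6%), and B cell-like cells 1 higher and 1 lower (17.5%, 24.3%). Dendritic-like cells had 1 of 10 higher and 0 lower (12.5%, 7.83%). In foamy macrophage-like cells 2 of 11 were higher and 0 lower, where 7.85% of all genes tested were higher and 6.71% lower. Srebf1, the factor of fatty acid synthesis, was at 26.6 CPM in Kif13b-/- and 14.9 CPM in WT, a log2 ratio of 0.83 (0.39 to 1.29). Tmem97, which binds the cholesterol transporter NPC1, was at 12.3 CPM in Kif13b-/- and 6.17 CPM in WT, a log2 ratio of 0.98 (0.30 to 1.72). Of the other synthesis enzymes, 12 were compared in foamy macrophage-like cells, with 2 higher and 1 lower. Their median log2 ratio was 0.0013, and 6 of the 12 were above 0. Nsdhl, an enzyme between lanosterol and cholesterol, was among the higher ones, at 5.91 CPM in Kif13b-/- and 1.90 CPM in WT. Among uptake genes, 12 of 13 were compared in macrophage-like cells with 0 calls, while in the Ly6c2 and Plac8 sub-cluster 3 of 11 were higher and 0 lower, where 7.89% of all genes tested were higher. In that sub-cluster 5 of the 11 were above 0, the median log2 ratio was -0.07, and the list summed to 1910 CPM in Kif13b-/- and 2056 CPM in WT. Among oxysterol genes, Ch25h, whose product 25-hydroxycholesterol holds back SREBP2, was lower in macrophage-like cells, at 36.2 CPM in Kif13b-/- and 67.2 CPM in WT, a log2 ratio of -0.89 (-1.08 to -0.71). Cyp7b1, which degrades that oxysterol, was at 1.33 CPM in Kif13b-/- and 5.21 CPM in WT macrophage-like cells, a log2 ratio of -1.93 (-2.95 to -1.096), from 13 UMIs in Kif13b-/- and 65 in WT. Few of these lay in the subsets: foamy macrophage-like cells had 0 UMIs in Kif13b-/- and 2 in WT, and the Ly6c2 and Plac8 sub-cluster 1 in Kif13b-/- and 2 in WT. Over all analysed barcodes Cyp7b1 had a log2 ratio of -1.49, with 125 UMIs in Kif13b-/- and 1710 in WT in chondrocyte-like cells alone. Of the 6 genes of esterification and oxysterols, all compared in macrophage-like cells, these were the 2 lower ones and 1 was higher, where 9.36% of all genes tested were lower and 4.84% higher; any relation to Insig1 was not tested. Ch25h was lower in foamy macrophage-like cells as well, at 49.0 CPM in Kif13b-/- and 92.0 CPM in WT, where Insig1 had an interval that included 0. In the Ly6c2 and Plac8 sub-cluster Ch25h was at 29.9 CPM in Kif13b-/- and 78.9 CPM in WT. Its log2 ratio there was -1.39 (-1.86 to -0.96), and the Insig1 interval also lay below 0.

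Of 8 genes of cholesterol efflux, all compared in endothelial-like cells, 3 were called higher and 0 lower, with a median log2 ratio of 0.41, where 6.39% of all genes tested were higher and 8.26% lower. They included Abcg1, which exports cholesterol to HDL, at 94.7 CPM in Kif13b-/- and 55.7 CPM in WT, and Apoe, a lipoprotein of macrophages and many other cells, at 1241 CPM in Kif13b-/- and 742 CPM in WT. Apoe was also called higher over all analysed barcodes (log2 ratio 0.68), in fibroblast-like cells (0.64) and in dendritic-like cells (2.12). It was called lower in Kif13b-/- B cell-like cells (-0.78) and cycling-like cells (-0.84). Without a call, Apoe was below 0 in chondrocyte-like (-0.32), modulated stromal-like (-0.30) and T cell-like cells (-0.09). Also without a call, it was above 0 in macrophage-like (0.35), smooth muscle-like (0.49), Schwann or glial-like (0.50) and adipocyte-like cells (0.52). Of 12 genes of fatty acid synthesis, 11 were compared in each of macrophage-like, endothelial-like and fibroblast-like cells, and 0 were called either way. In adipocyte-like cells 3 of 11 were lower and 0 higher, where 17.4% of all genes tested were lower. Among them was Acaca, the acetyl-CoA carboxylase that starts fatty acid synthesis, at 108 CPM in Kif13b-/- and 171 CPM in WT. In these adipocyte-like cells 4 of the 11 were above 0, with a median log2 ratio of -0.09. The whole list summed to more in Kif13b-/- (6013 CPM) than in WT (5101 CPM). Of 8 genes of the side branches to isoprenoids, 2 were lower in fibroblast-like cells and 0 higher, where 8.75% of all genes tested were lower and 6.94% higher. Both, Pdss1 and Pdss2, make the tail of ubiquinone, with log2 ratios of -0.66 (-1.27 to -0.09) and -0.65 (-1.15 to -0.17).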

How the data were processed

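The authors deposited 1 gene-by-barcode matrix of UMI counts per library, made with Cell Ranger on mm10 per the submitters' processing notes from 10x 3' v3.1 libraries per the labels' protocols; versions, filters and the treatment of reads that match several genes are not given in the sources used here. The members and all lists were chosen with earlier results of these data known.

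Barcodes with under 500 UMIs, under 300 genes or over 20% mitochondrial UMIs were left out. Scrublet's automatic threshold marked 0 doublets, so the highest scores were removed at 0.8% per 1000 barcodes (428 in Kif13b-/-, 3146 in WT). Cells were clustered in scanpy 1.11.5 (2000 variable genes, 0 of them members, 30 components, 15 neighbours, Leiden resolution 1; macrophages again at 0.5). Clusters were named from fixed markers, with naming thresholds set after the clusters were seen: at least 3 markers and 50% of the list raised 2-fold and detected in 10% of cells, and a log2 lead of 0.9 over the next type. Names are rebuilt, not the authors'. UMIs were summed per cell type and library and divided by their total (CPM). A prior count of 0.5 entered both sums of each log2 ratio, and intervals are exact (Poisson for levels, binomial given the sum of both counts for ratios). The call rule was tested on simulated data. Genes outside the 8 were named by rule: past a ratio of 1.5 with an interval off 0, up to 3 per list and cell type, and the 10 most similar patterns; not all are listed. Gene positions are from GENCODE M21, upstream sequences from RefSeq. Alternatives changed the filters, doublets, weighting, depth, scaling, clustering, prior count and thresholds; leaving single members out of the sum and reading the deep macrophage cluster alone were added after the values were seen. Results for some genes of the wider lists are not reported here.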

Additional observations from a re-analysis of the deposited data

Results flagged for a closer look

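The summed level of the 8 genes was higher in Kif13b-/- in smooth muscle-like cells, with a log2 ratio of 0.12, and lower in 6 other cell types, with intervals on opposite sides of 0. The values there were -1.11 in Schwann or glial-like, -0.485 in endothelial-like, -0.34 in chondrocyte-like, -0.33 in fibroblast-like, -0.24 in modulated stromal-like and -0.15 in macrophage-like cells. Hmgcs1 was split in the same way, at 0.20 in smooth muscle-like cells against -0.62 in chondrocyte-like, -0.52 in endothelial-like, -0.51 in macrophage-like and -0.37 in fibroblast-like cells. Cyp51 stood at 1.33 in adipocyte-like and 0.46 in smooth muscle-like cells against -2.21 in Schwann or glial-like cells. With 1 library per genotype the difference between cell types was not tested.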

How the results depend on the processing

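No paired analysis was possible because each genotype has 1 library. The summed log2 ratio stayed below 0 under every alternative listed at the outset that gave a value in fibroblast-like (-0.38 to -0.27), endothelial-like (-0.70 to -0.45), chondrocyte-like (-0.82 to -0.22), T cell-like, macrophage-like and Schwann or glial-like cells. Alternatives that left a cell type under 50 barcodes in a library gave no value for it. Thinned to 1000 UMIs, the sum was -1.74 in Schwann or glial-like, -0.96 in adipocyte-like, -0.71 in chondrocyte-like, 0.62 in cycling-like, 1.19 in dendritic-like, -0.70 in endothelial-like, -0.59 in macrophage-like, 0.048 in modulated stromal-like and -0.024 in smooth muscle-like cells. Thinning also turned Insig1 to 0.064 in modulated stromal-like and Cyp51 to -0.19 in smooth muscle-like cells, and moved the highest over the lowest summed level in Kif13b-/- to 4.55. With each barcode counting the same, the sum was -0.33 in adipocyte-like, -0.82 in chondrocyte-like, 0.22 in cycling-like, -0.32 in macrophage-like, -0.10 in modulated stromal-like and -0.0012 in smooth muscle-like cells. Counting putative doublets gave -0.61 in Schwann or glial-like cells, and cell types from the highest marker score gave -0.67 in adipocyte-like cells. Without Srebf2 the sum was -0.40 in dendritic-like cells, and without Insig1 it was 0.0099 in macrophage-like cells. The 4 member values called higher became 2 with at most 10% mitochondrial UMIs, 2 with doublets kept, 10 with each barcode counting the same, 0 at 50 UMIs or more and 10 at a lower threshold for the ratio. The 17 called lower became 11, 8, 27, 8 and 32 under those settings, 27 with no minimum of UMIs and 7 with a prior count of 5. In the wider lists, which also hold cycling, stress and unfolded protein response genes, 102 values were called higher, and 64 at 50 UMIs or more. Without that stricter minimum, more values of these lists were called lower than higher. Of all genes tested, between 4.84% and 17.5% were higher, depending on the cell type. Of the 10 genes most like the sum, 6 were among the first 10 by Spearman's rho. The cause of these changes was not tested, and depth limits Sqle and Dhcr7 most, each compared in 6 of 12 cell types.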

Other observations

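In WT, lymphatic endothelial-like and neutrophil-like cells also had enough barcodes for a level, 182 and 83. The 8 genes summed to 129 CPM (100 to 163) in the lymphatic endothelial-like cells and, on 15 UMIs, to 80.2 CPM (44.9 to 132) in the neutrophil-like cells. The unnamed cluster led by mitochondrial genes had 121 CPM over its 1288 Kif13b-/- barcodes and 173 CPM over its 7 WT barcodes. An unnamed cluster led by Chil1, Cyp7b1 and Bpifb1 had 102 CPM over 85 Kif13b-/- barcodes and 108 CPM over 825 WT barcodes.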
